A study of Mus musculus with 6 samples.

Results

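The genes described here are 10 mouse genes of eicosanoid metabolism, Pla2g4a, Pla2g4c, Alox5, Alox5ap, Ltc4s, Ptgs1, Ptgs2, Hpgds, Ptges and Hpgd. They were chosen by name, as cytosolic phospholipases A2 and enzymes of leukotriene and prostaglandin metabolism, and all 10 were found among the 55450 genes of the count table. The data were polyA RNA-seq counts from small intestinal epithelium of adult mice, with 1 library per mouse. The 3 knockout mice (423, 476 and 477) carried loxP-flanked alleles of both targeted corepressor genes, Ncor1 among them, together with Vil1-Cre-ERT2, a tamoxifen-inducible Cre driven by the villin 1 promoter in intestinal epithelial cells. The 3 control mice (482, 483 and 486) carried the same floxed alleles without the Cre transgene. Per the labels' protocols, mice were injected with tamoxifen (15 mg per 100 g body weight, 5 days) at 8 to 9 weeks of age. Because the transgene was present in the knockouts alone, its own effects and those of the deletion cannot be told apart.

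Eicosanoids are short-range lipid signals made from arachidonic acid. Phospholipases A2 release the fatty acid from membrane phospholipids, and lipoxygenases turn it into leukotrienes while cyclooxygenases turn it into prostaglandins. In the intestinal epithelium, tuft cells, which are rare chemosensory cells, are known for expressing several of these enzymes, and mast cells and macrophages of the wall express them too. Absorptive cells carry the main prostaglandin-degrading enzyme.

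The libraries held 23476031 to 34568205 counts in knockouts and 26199718 to 46835165 in controls. Levels are given below as TMM-scaled CPM (counts over library size), on which 3 counts correspond to 0.0997 to 0.173 CPM in knockouts and 0.0586 to 0.101 CPM in controls. The targeted gene Ncor1 stood at 31.3, 36.4 and 22.5 CPM in knockouts 423, 476 and 477, against 140, 137 and 99.3 CPM in controls 482, 483 and 486. As a check of the tissue label, the epithelial genes Epcam (1268 ± 206 CPM in knockouts, 1947 ± 172 CPM in controls) and Cdh1 (606 ± 74.7 CPM in knockouts, 659 ± 67.5 CPM in controls; SD, n = 3 each) were abundant in both groups, and of 10 epithelial markers only Vil1, named after its values were seen, passed the test (edgeR log2 fold change -1.20, adjusted p = 0.011). With scaling by library size alone 5 of the 10 fell, Epcam and Cdh1 among them. Nothing in the labels says which section of the small intestine a library came from. Of 15028 genes tested with edgeR's quasi-likelihood test, 2596 (17.3%) rose and 2752 (18.3%) fell at a Benjamini-Hochberg adjusted p under 0.05. Scaled by library size alone, 1133 rose and 4554 fell, with the median log2 fold change of all genes at -0.49 in place of -0.06.

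Of the 10 eicosanoid genes, 7 fell, none rose, 1 (Ltc4s) did not pass the test, and 2 (Ptgs2 and Ptges) had too few counts to be tested. Of all tested genes, 35.6% passed in either direction and 18.3% fell. The 7 that fell were Pla2g4a, Pla2g4c, Alox5, Alox5ap, Ptgs1, Hpgds and Hpgd. Every knockout library lay below every control library for these 7 and for Ptgs2. Of all tested genes, 50.3% had groups that did not overlap, and 26.4% did so with the knockouts lower. Of the 8 tested genes, Pla2g4a, Pla2g4c, Alox5, Alox5ap and Ptgs1 reached the filter level in all 3 libraries of the control group only. Pla2g4a, Pla2g4c and Alox5 reached it in at most 1 knockout library, and so could enter the test only by being higher in controls. Alox5ap and Ptgs1 reached it in 2 knockout libraries each. No support is drawn from the count of 7 or from a median of the tested genes. Ltc4s, Hpgds and Hpgd reached the filter level in all 6 libraries. In bulk tissue, fewer cells of one type and less RNA per cell cannot be told apart.

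**Figure D1:**
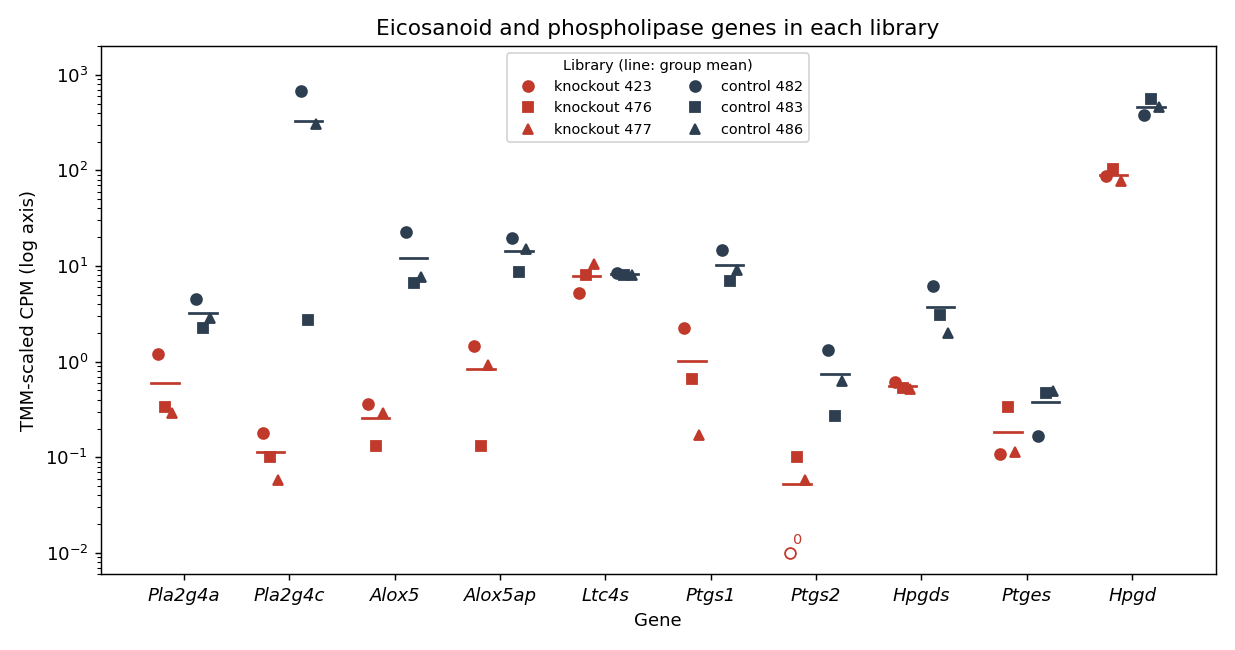
TMM-scaled CPM (log axis) of the 10 genes in each library, knockouts in red to the left and controls in dark blue to the right of each gene, with a line at each group mean and an open symbol for a library at 0. The groups are apart for 8 genes and overlap for Ltc4s and Ptges, and control 483 lies far below the other 2 controls for Pla2g4c.

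RefSeq (GRCm38.p6) held 11 promoter entries for 9 of the 10 genes, Alox5ap being the one without. In the 250 bases before each start, 4 short motifs were searched on both strands. These were the octamer ATGCAAAT bound by POU-domain factors, the family of the tuft cell regulator Pou2f3, the GC box GGGCGG, the half-site AGGTCA read by many nuclear receptors, and the TATA box TATAAA. Their shares among 32851 mouse promoter windows of the same length were 1.6%, 32.7%, 14.0% and 12.4%. Of the 9 genes, the octamer was found in Hpgds only, the GC box in Alox5, Hpgd, Ptges and Ptgs2, and the half-site and the TATA box in Pla2g4a only, in its separate windows. The windows of Alox5 and Ptgs1 are shown because these are the first enzymes of the leukotriene and prostaglandin branches, and the stretch of Hpgds because it holds the octamer. Letters run 5′ to 3′ on the gene's strand and capitals mark the motif. The Alox5 window lies at chr6:116461179-116461428 (minus strand), with the GC box beginning 35 bases before the start. The Ptgs1 window lies at chr2:36230176-36230425 (plus strand) and holds none of the 4 motifs. The Hpgds stretch lies at chr6:65144886-65144915 (minus strand), with the octamer 174 bases before the RefSeq start. GENCODE M21 starts Hpgds further upstream, so that 178 of the 250 bases lie within its gene. The windows of Ptges, both of Pla2g4c and the Pla2g4a window with the TATA box lie wholly within the GENCODE genes, as do 84 bases of that of Ltc4s.
Alox5: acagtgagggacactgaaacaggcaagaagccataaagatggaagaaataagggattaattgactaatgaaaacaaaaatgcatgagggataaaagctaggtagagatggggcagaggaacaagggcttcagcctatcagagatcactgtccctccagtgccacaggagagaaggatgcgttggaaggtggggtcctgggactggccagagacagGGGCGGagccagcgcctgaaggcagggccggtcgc
Ptgs1: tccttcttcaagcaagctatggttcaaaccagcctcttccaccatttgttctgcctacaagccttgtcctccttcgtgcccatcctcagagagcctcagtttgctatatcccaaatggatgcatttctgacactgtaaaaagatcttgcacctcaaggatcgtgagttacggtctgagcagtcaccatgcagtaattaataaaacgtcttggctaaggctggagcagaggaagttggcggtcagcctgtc
Hpgds: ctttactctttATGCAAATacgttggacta
A match describes the letters only, and a window without one says nothing about binding of a factor. None of the 4 motifs was found in all 9 genes, of which 7 were tested and 6 fell.

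At the head of the pathway, both cytosolic phospholipases fell. Pla2g4a (ENSMUSG00000056220, mm10 chr1:149829618-149961290, minus strand) encodes the enzyme that releases arachidonic acid when calcium brings it to membranes. It stood at 1.19, 0.332 and 0.288 CPM in knockouts 423, 476 and 477, against 4.51, 2.23 and 2.85 CPM in controls 482, 483 and 486. Knockout 423 was the highest of the knockouts and still below the lowest control. The fit gave a log2 fold change of -2.37 (SE 0.57, edgeR adjusted p = 0.012), which was -3.31 without knockout 423.

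Pla2g4c (ENSMUSG00000033847, mm10 chr7:13324655-13360672, plus strand) encodes a calcium-independent relative of that enzyme. Its 5, 3 and 1 counts in the knockouts correspond to 0.181, 0.0997 and 0.0575 CPM, against 683, 2.7 and 308 CPM in controls 482, 483 and 486. The knockouts were at or near the level of 3 counts, and the controls differed from each other by 253-fold, with control 483 far below the other controls. The fitted log2 fold change of -11.40 (SE 2.16, edgeR adjusted p = 0.0077) was the lowest of all 15028 tested genes. It did not pass without control 482 (log2 fold change -10.31, edgeR adjusted p = 0.058) or with limma-voom (-9.28, adjusted p = 0.24). Without control 483 it was -11.99 (edgeR adjusted p = 5.1e-06).

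In the fraction of the summed Pla2g4a and Pla2g4c level, per exon kilobase, that came from Pla2g4a, the libraries of the groups did not overlap. Other genes of the Pla2g4 family are not in that sum. Pla2g4a accounted for 79.5%, 66.2% and 74.6% in knockouts 423, 476 and 477, against 0.386%, 32.6% and 0.541% in controls 482, 483 and 486. The knockout values rest on 38, 13 and 6 counts of both genes, so the Wilson 95% interval of knockout 477 ran from 31.2% to 94.98%, and it covers counting error only. The difference of 62.2 percentage points had an exact two-sided permutation p of 0.1, the smallest that 3 against 3 libraries allow.

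Among 19 other phospholipases A2, 12 were tested, of which 3 rose and 2 fell, and their median log2 fold change was -0.62 against -0.06 for all genes. The shares of all tested genes that rose and fell were 17.3% and 18.3%. Pla2g2e, a secreted enzyme, had 14, 23 and 9 counts in knockouts and 1, 0 and 3 counts in controls (edgeR log2 fold change 4.15, SE 0.72, adjusted p = 0.0027, and 5.17 without control 486). Pla2g2e reached the filter level in knockout libraries only, so its direction was set by the filter. No support is drawn from its call or from the counts and median of this list. Pla2g10, another secreted enzyme, averaged 8.38 ± 1.26 CPM in knockouts and 2.75 ± 0.743 CPM in controls (edgeR log2 fold change 1.61, SE 0.30, adjusted p = 0.0038). The secreted phospholipase gene Pla2g12a also rose, by 1.26 on the log2 scale (edgeR adjusted p = 0.030), but did not pass without any 1 of the controls or without knockout 423, where the log2 fold change was 0.72, nor with library size alone (0.87, edgeR adjusted p = 0.16).

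The secreted enzymes Pla2g2f and Pla2g2a fell. Pla2g2f averaged 0.455 ± 0.168 CPM in knockouts and 1.93 ± 0.764 CPM in controls (edgeR log2 fold change -2.11, adjusted p = 0.0096). Pla2g2a stood at 0.724, 0.199 and 0 CPM in knockouts 423, 476 and 477, against 9.40, 0.979 and 1.33 CPM in controls 482, 483 and 486. Its call (edgeR log2 fold change -3.56, adjusted p = 0.033) was lost without control 482, control 486, knockout 476 or knockout 477, with edgeR adjusted p-values of 0.15, 0.050, 0.13 and 0.084, and with DESeq2 (0.056) and limma-voom (0.065). The log2 fold change was -1.83 without control 482 and -4.96 without knockout 423. Pla2g2a reached the filter level in all 3 libraries of the control group only, so its direction was largely set by the filter. Pla2g6, a calcium-independent intracellular phospholipase, averaged 39.5 ± 6.19 CPM in knockouts and 27.7 ± 7.31 CPM in controls and did not pass (edgeR log2 fold change 0.51, adjusted p = 0.12), although it did once trends with exon length and GC content were removed (1.03). Pla2g2a, Pla2g2e and Pla2g2f lie on the same chromosome within one cluster of paralogs, and a share of reads between them is uncertain to the extent that their sequences agree.

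The first enzyme of the leukotriene branch and its membrane partner were both far lower in knockouts. Alox5 (ENSMUSG00000025701, mm10 chr6:116410077-116461178, minus strand), whose promoter window is printed above, encodes 5-lipoxygenase, the enzyme that makes leukotriene A4 from arachidonic acid. It had 10, 4 and 5 counts in knockouts 423, 476 and 477 and 1065, 195 and 395 counts in controls 482, 483 and 486. In CPM these were 0.362, 0.133 and 0.288 in knockouts, against 22.4, 6.59 and 7.71 in controls. The highest knockout was far below the lowest control, and control 482 was the highest of the controls. The level was 47.3-fold lower in knockouts (edgeR log2 fold change -5.56, SE 0.62, adjusted p = 0.00031), with log2 fold changes of -6.04 to -4.25 over 15 other settings, -4.79 without control 482 among them.

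Alox5ap (ENSMUSG00000060063, mm10 chr5:149264767-149288153, plus strand) encodes FLAP, the membrane protein that presents arachidonic acid to 5-lipoxygenase. It stood at 1.45, 0.133 and 0.920 CPM in knockouts 423, 476 and 477, against 19.6, 8.68 and 15.0 CPM in controls 482, 483 and 486. The knockouts varied by 10.9-fold among themselves, yet all lay below the controls. The fit gave 17.5-fold lower levels in knockouts (edgeR log2 fold change -4.13, SE 0.63, adjusted p = 0.0016), and a log2 fold change of -4.91 without knockout 423. The antisense gene Gm19719 shares 189 exon bases with Alox5ap and held 0 counts in knockouts and 4 in controls.

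Ltc4s was the 1 tested gene of the 10 that did not pass. Ltc4s (ENSMUSG00000020377, mm10 chr11:50236461-50238616, minus strand) encodes the synthase that joins leukotriene A4 to glutathione, the step that gives leukotriene C4. It stood at 5.25, 8.14 and 10.5 CPM in knockouts 423, 476 and 477, against 8.54, 8.04 and 8.08 CPM in controls 482, 483 and 486. The knockouts lay on both sides of the narrowly spaced controls. Means were 7.95 ± 2.62 CPM in knockouts and 8.22 ± 0.275 CPM in controls (SD, n = 3 each; edgeR log2 fold change -0.05, SE 0.28, adjusted p = 0.90), and the sign turned to 0.21 without knockout 423. The antisense gene Gm26542 shares 268 exon bases with Ltc4s and held 67 counts in knockouts and 40 in controls, against 572 and 1057 under Ltc4s. Whether the counting used strand is not given in the sources used here, and reads of these overlapping pairs cannot be told apart.

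Of 16 other leukotriene and lipoxygenase genes, 10 were tested, 2 rose and 3 fell, with a median log2 fold change of 0.37. Among all tested genes 17.3% rose and 18.3% fell. Mgst2, a microsomal glutathione transferase that can also make leukotriene C4, stood at 1095, 1112 and 1623 CPM in knockouts 423, 476 and 477, against 199, 253 and 349 CPM in controls 482, 483 and 486. The groups were well apart (edgeR log2 fold change 2.26, SE 0.30, adjusted p = 0.00072). Ptgr1, the reductase that degrades leukotriene B4 and prostaglandin metabolites, also rose (1047 ± 556 CPM in knockouts, 186 ± 86.1 CPM in controls; edgeR log2 fold change 2.49, adjusted p = 0.0038).

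Lta4h, the hydrolase that makes leukotriene B4, fell to 120 ± 19.4 CPM in knockouts, against 226 ± 8.43 CPM in controls (SD, n = 3 each; edgeR log2 fold change -0.91, SE 0.21, adjusted p = 0.0094). Without knockout 477 it missed the threshold, at an adjusted p of 0.053 in edgeR. The gamma-glutamyltransferases Ggt1 and Ggt5, which take leukotriene C4 to D4, fell by 1.07 and 1.95 on the log2 scale (edgeR adjusted p = 0.013 and 0.026). Both of these calls were lost without control 483, knockout 423 or knockout 476. That of Ggt5 was also lost without knockout 477 and after removal of length and GC trends. Ggt5 reached the filter level in control libraries only, so its direction was set by the filter and no support is drawn from its call.

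Set per exon kilobase, which allows levels of different genes to be compared, the transferases Mgst2 and Mgst3 stood above Ltc4s in both groups. Mgst2 averaged 345 ± 81.1 CPM per kilobase in knockouts and 72.1 ± 20.5 in controls. Mgst3, a related transferase, averaged 1010 ± 170 CPM per kilobase in knockouts and 570 ± 224 in controls and did not pass the test (edgeR adjusted p = 0.062). Ltc4s averaged 7.84 ± 2.58 CPM per kilobase in knockouts and 8.11 ± 0.272 in controls, and Alox5 0.0635 ± 0.0284 in knockouts and 2.98 ± 2.16 in controls.

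**Figure D2:**
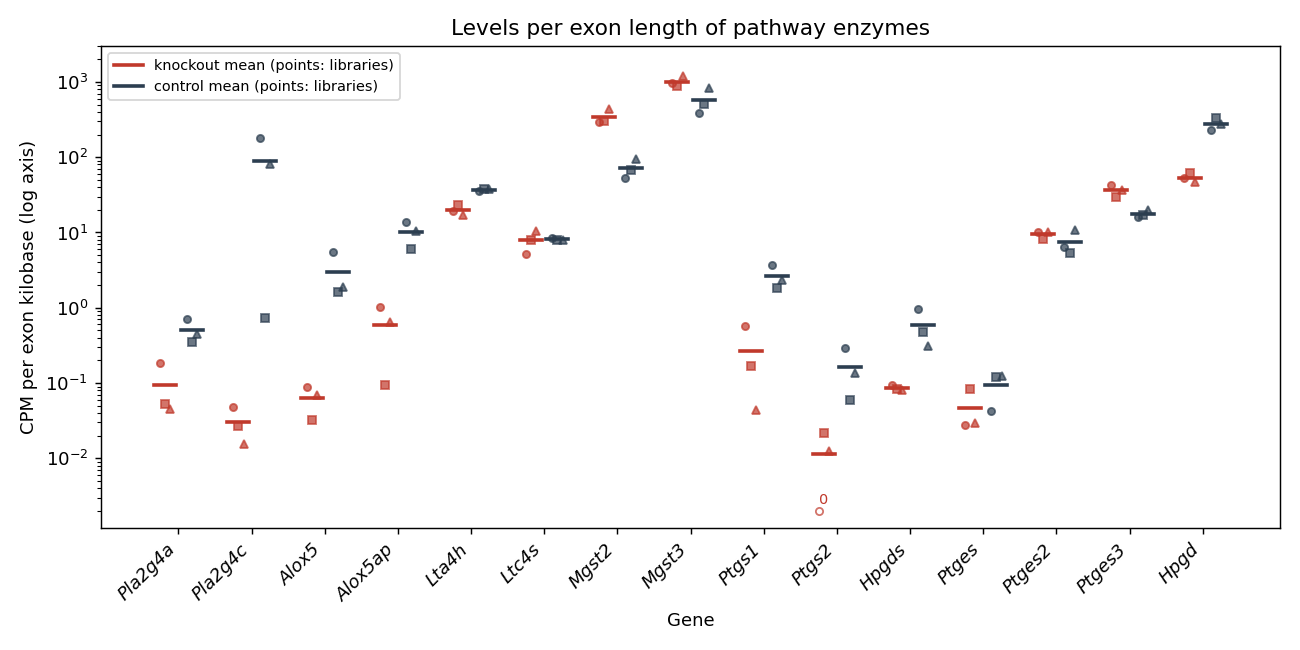
CPM per exon kilobase (log axis) of the 10 genes and 5 enzymes of neighbouring steps, with a point per library, knockouts in red to the left and controls in dark blue to the right, a line at each group mean, and an open symbol for a library at 0. Mgst2, Mgst3 and Hpgd are the highest in knockouts, and Ptgs2, Pla2g4c, Ptges and Alox5 the lowest there.

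In the prostaglandin branch, Ptgs1 and Hpgds fell and Ptgs2 was low throughout. Ptgs1 (ENSMUSG00000047250, mm10 chr2:36230426-36252272, plus strand), the other gene whose promoter window is printed above, encodes cyclooxygenase-1, usually described as the constitutive isoform. It stood at 2.24, 0.665 and 0.173 CPM in knockouts 423, 476 and 477, against 14.5, 7.06 and 9.12 CPM in controls 482, 483 and 486. The knockouts spread over 13.0-fold, more than the 2.06-fold of the controls, and did not overlap them. The level was 9.61-fold lower in knockouts (edgeR log2 fold change -3.27, SE 0.66, adjusted p = 0.0055), or -4.45 on the log2 scale without knockout 423. No read was counted under Gm43621, which shares 148 of its exon bases.

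Ptgs2 (ENSMUSG00000032487, mm10 chr1:150100031-150108227, plus strand) encodes cyclooxygenase-2, the isoform induced by growth and inflammatory signals, and lies 139 kb from Pla2g4a. It had 0, 3 and 1 counts in knockouts 423, 476 and 477 and 63, 8 and 32 counts in controls 482, 483 and 486. All knockouts lay at or below the level of 3 counts, and control 483 was the lowest control. Over the groups, the scaled counts were 15.1-fold lower in knockouts (95% exact binomial interval 5.71 to 56.4, counting error only), with an exact two-sided permutation p of 0.1 on the mean CPM. Ptgs2 was left out of the test by the filter on low counts. With no filter, edgeR gave a log2 fold change of -3.78 (adjusted p = 5.2e-05), and DESeq2 gave -3.81 (adjusted p = 0.0028). The edgeR fit with no filter gave far smaller adjusted p-values than the main fit for other genes too, with 8.7e-135 against 0.0077 for Pla2g4c. Its p-values are therefore not read as strength. The log2 fold change of Ptgs2 was -3.09 without knockout 423 and -4.81 without knockout 476, where it passed the filter through controls only.

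Both groups took most of their cyclooxygenase level from Ptgs1, which made up 100%, 88.7% and 78.0% of the summed level per exon kilobase in knockouts 423, 476 and 477, against 92.8%, 96.9% and 94.5% in controls 482, 483 and 486. The groups overlapped, and the difference of -5.83 percentage points had an exact permutation p of 0.5. Knockout 477 rests on 4 counts, with a Wilson 95% interval from 33.6% to 96.1%, so a shift between the isoforms was not detectable at this depth.

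Hpgds (ENSMUSG00000029919, mm10 chr6:65117293-65144908, minus strand), the gene with the octamer, encodes the haematopoietic prostaglandin D synthase, a product of mast cells and tuft cells among others. It stood at 0.615, 0.532 and 0.518 CPM in knockouts 423, 476 and 477, against 6.26, 3.07 and 1.97 CPM in controls 482, 483 and 486. The knockouts were closely spaced and every one was below the lowest control. The difference was -2.75 on the log2 scale (SE 0.49, edgeR adjusted p = 0.0032).

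Ptges (ENSMUSG00000050737, mm10 chr2:30889471-30929863, minus strand), the inducible microsomal prostaglandin E synthase, was close to the detection level in both groups. It had 3, 10 and 2 counts in knockouts 423, 476 and 477 and 8, 14 and 25 counts in controls 482, 483 and 486. Knockout 476 lay above control 482 in CPM (0.332 against 0.169), so the groups overlapped. No difference was detectable at this depth (exact permutation p of 0.2 on the mean CPM; edgeR adjusted p = 0.40 with no filter).

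Hpgd, the prostaglandin-degrading gene, had the highest level per exon kilobase of the 10 in every library and fell in knockouts. Hpgd (ENSMUSG00000031613, mm10 chr8:56294585-56321043, plus strand) encodes 15-hydroxyprostaglandin dehydrogenase, which inactivates prostaglandin E2 and its relatives. It stood at 88.3, 103 and 77.6 CPM in knockouts 423, 476 and 477, against 381, 555 and 459 CPM in controls 482, 483 and 486. Within each group the libraries agreed to within 1.46-fold. The level was 5.19-fold lower in knockouts (edgeR log2 fold change -2.38, SE 0.24, adjusted p = 0.00019), the smallest adjusted p of the 8 tested genes.

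The log2 ratio of Ptges to Hpgd, a synthesis and a breakdown enzyme of prostaglandin E2, was -10.89, -9.50 and -10.62 per exon kilobase in knockouts 423, 476 and 477, against -12.37, -11.42 and -11.10 in controls 482, 483 and 486. The prostaglandin E synthases Ptges2 and Ptges3 are not in this ratio. The groups did not overlap, and Hpgd exceeded Ptges in every library. The difference of 1.29 had an exact permutation p of 0.1, the smallest possible here, and the Ptges side rests on 2 to 10 counts in each knockout. Mean Ptges was not higher in knockouts (0.185 CPM, against 0.377 CPM in controls), so the higher ratio reflects the lower Hpgd.

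Of 10 other prostanoid synthases, transporters and reductases, 7 were tested, of which 3 rose and 1 fell, with a median log2 fold change of 1.03. Among all tested genes 17.3% rose and 18.3% fell. Abcc4, which exports prostaglandins from cells, averaged 4.71 ± 1.64 CPM in knockouts and 0.457 ± 0.121 CPM in controls (edgeR log2 fold change 3.37, SE 0.43, adjusted p = 0.00059). Cbr1, a carbonyl reductase that can convert prostaglandin E2 to F2alpha, averaged 878 ± 134 CPM in knockouts and 286 ± 87.7 CPM in controls (edgeR log2 fold change 1.62, adjusted p = 0.0031). Ptges3, a cytosolic prostaglandin E synthase also known as the Hsp90 co-chaperone p23, averaged 80.7 ± 13.6 CPM in knockouts and 39.4 ± 4.31 CPM in controls (edgeR log2 fold change 1.03, SE 0.20, adjusted p = 0.0051). For each of these 3 every knockout lay above every control, though Ptges3 did not pass with scaling by library size alone (log2 fold change 0.61, edgeR adjusted p = 0.059).

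The prostaglandin uptake transporter Slco2a1 fell by 0.85 on the log2 scale (edgeR adjusted p = 0.045). It passed in 8 of 15 other settings: the call was lost without control 482, control 483, knockout 423 or knockout 477, with DESeq2 size factors, with limma-trend and after removal of length and GC trends. The log2 fold change was -0.53 without control 483 and -0.23 after each library's trend with exon length and GC content was removed. Ptges2, another membrane prostaglandin E synthase, averaged 48.0 ± 5.92 CPM in knockouts and 38.2 ± 15.1 CPM in controls and did not pass (edgeR log2 fold change 0.33, adjusted p = 0.37). That log2 fold change was -0.10 with library size alone, and 0.70 without control 486, where it passed (edgeR adjusted p = 0.026). Per exon kilobase, Ptges3 (36.4 ± 6.15 CPM in knockouts, 17.8 ± 1.94 CPM in controls) and Ptges2 (9.48 ± 1.17 CPM in knockouts, 7.55 ± 2.99 CPM in controls) stood far above Ptges in both groups.

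**Figure D3:**
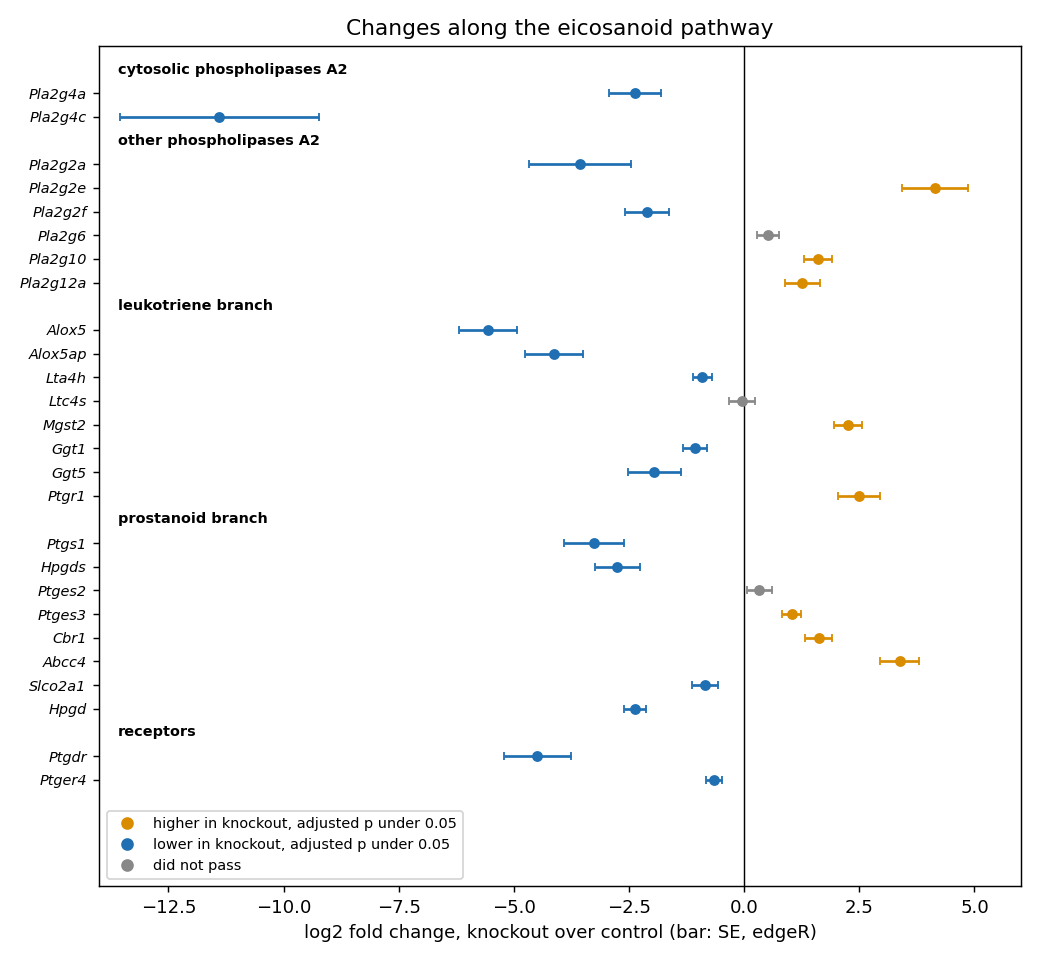
log2 fold change of knockout over control from edgeR, with a bar of 1 SE each way, for the tested genes of the 10 and the named genes of the same pathway, grouped by step. Orange marks genes higher and blue genes lower in knockouts at an adjusted p under 0.05, and grey those that did not pass. Pla2g4c, Alox5, Ptgdr and Alox5ap lie furthest to the left and Pla2g2e and Abcc4 furthest to the right.

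Among 14 eicosanoid receptor genes, 6 were tested, none rose and 2 fell, with a median log2 fold change of -0.45. The shares of all tested genes that rose and fell were 17.3% and 18.3%. Ptgdr, a receptor for prostaglandin D2, had 0, 3 and 1 counts in knockouts 423, 476 and 477 and 57, 49 and 50 counts in controls 482, 483 and 486. The groups were far apart, at 22.8-fold lower scaled counts in knockouts (95% exact binomial interval 8.74 to 84.9; edgeR log2 fold change -4.49, SE 0.72, adjusted p = 0.0020). That log2 fold change was -3.86 without knockout 423 and -5.58 without knockout 476. Ptgdr reached the filter level in control libraries only, so its direction was set by the filter. No support is drawn from its call or from the count and median of the receptor list. Ptger4, a prostaglandin E2 receptor, averaged 23.6 ± 1.87 CPM in knockouts and 37.2 ± 2.78 CPM in controls (edgeR log2 fold change -0.65, adjusted p = 0.020). The call of Ptger4 was lost without control 482, knockout 423 or knockout 477, with adjusted p-values of 0.064, 0.069 and 0.081 in edgeR. It was also lost after removal of length and GC trends (edgeR adjusted p = 0.0996), so it passed in 11 of 15 other settings.

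Ordered by mean level per exon kilobase, Hpgd came before all others in both groups. In knockouts the order was Hpgd, Ltc4s, Alox5ap, Ptgs1, Pla2g4a, Hpgds, Alox5, Ptges, Pla2g4c and Ptgs2, with means of 53.2 CPM per kilobase for Hpgd and 0.0114 for Ptgs2. Only the steps from Hpgd to Ltc4s and from Ltc4s to Alox5ap were free of overlap between libraries there. In controls it was Hpgd, Pla2g4c, Alox5ap, Ltc4s, Alox5, Ptgs1, Hpgds, Pla2g4a, Ptgs2 and Ptges, with means of 276 CPM per kilobase for Hpgd and 0.0958 for Ptges. Neighbours overlapped in controls for Pla2g4c and Alox5ap, Alox5ap and Ltc4s, Alox5 and Ptgs1, Hpgds and Pla2g4a, and Ptgs2 and Ptges.

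Single libraries carried much of the spread within a group. Control 482 was the highest control for 8 of the 10 genes, Hpgd (highest in control 483) and Ptges (highest in control 486) being the exceptions. Knockout 423 was the highest knockout for 6 genes, Pla2g4a, Pla2g4c, Alox5, Alox5ap, Ptgs1 and Hpgds. The same libraries were the highest of their groups in summed tuft cell markers, at 63.7, 42.1 and 48.9 CPM in knockouts 423, 476 and 477, against 520, 228 and 238 CPM in controls 482, 483 and 486.

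Most of 20 tuft cell markers were lower in knockouts too. All 20 were tested and 19 fell, where 18.3% of all tested genes fell, with a median log2 fold change of -5.13. As 13 of the 20 reached the filter level in all 3 libraries of the control group only, their direction was largely set by the filter and no support is drawn from that count or median. Il25, Gng13 and Chat had no count in any knockout library. Ptpn6, a phosphatase gene that leukocytes express as well, was the exception at 39.0 ± 4.81 CPM in knockouts and 37.3 ± 4.42 CPM in controls. Without Ptpn6 the sums were 22.6, 8.61 and 6.44 CPM in knockouts 423, 476 and 477, against 480, 189 and 206 CPM in controls 482, 483 and 486. Among the markers with the smallest p were the succinate receptor gene Sucnr1 (edgeR log2 fold change -6.72, adjusted p = 8.5e-05), Avil (-4.99, or -4.32 without control 482), Lrmp (-3.81) and Pou2f3, the transcription factor that tuft cells require. Pou2f3 had 1 count in the knockout group and 692 in the control group, which is 405-fold lower (95% exact binomial interval 72.5 to 16027). The part of the tuft cell markers in the changes of the eicosanoid genes was not tested.

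**Figure D4:**
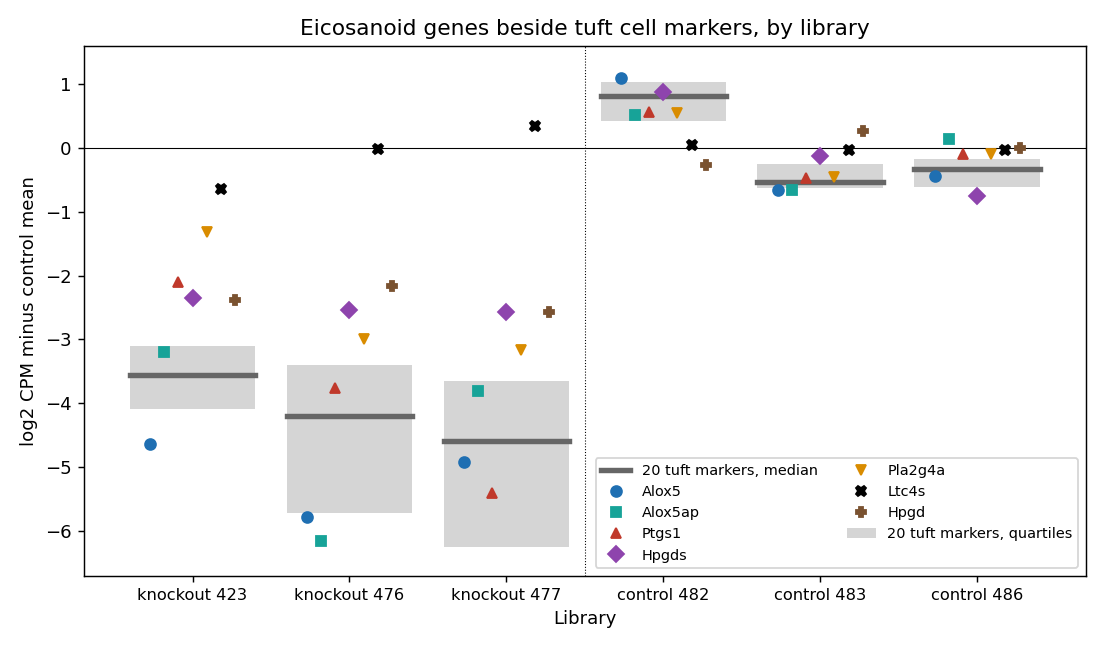
log2 CPM (prior count 2) minus the mean of the 3 controls, by library, for 7 of the 8 tested genes, with the median (line) and quartiles (grey band) of 20 tuft cell markers. Pla2g4c, at -9.48 to -8.44 in knockouts, is outside the range drawn. In knockouts Hpgds, Hpgd and Pla2g4a lie above the band of the markers in all 3 libraries, Ltc4s lies near 0, and Alox5 lies below the band or within its lower part.

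Set against the summed tuft markers within each library, the genes fell into different positions, on log2 CPM with a prior count of 2. The summed markers themselves differed by -2.59 on the log2 scale, and by -4.62 without Ptpn6, which was left out after its values were seen. Ptpn6 alone stood at 41.0, 33.5 and 42.4 CPM in knockouts 423, 476 and 477, most of their full sums. In controls 482, 483 and 486 it stood at 40.4, 39.2 and 32.2 CPM, a small part of theirs. Differences relative to the full sum therefore set the genes mainly against Ptpn6 in knockouts. Of 10 such comparisons, none can give an exact two-sided p below 0.1. Relative to the full sum, Alox5 differed by -2.53, Alox5ap by -1.80 and Pla2g4c by -6.40 between knockouts and controls, each with an exact permutation p of 0.1. Ptgs1 differed by -1.17 (exact permutation p of 0.3). Without Ptpn6 in the sum these differences became -0.49 for Alox5, 0.23 for Alox5ap, -4.37 for Pla2g4c and 0.86 for Ptgs1. With the mean of log2 marker levels, Ptpn6 included, in place of the sum they were -0.91, -0.18, -4.78 and 0.45, so their size, and for Alox5ap and Ptgs1 their sign, depends on how the markers are summed.

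For Pla2g4a, Hpgds, Hpgd and Ptgs2 the differences relative to the full sum were 0.09, 0.10, 0.22 and -0.13, with exact permutation p of 0.9, 0.8, 0.8 and 0.8. Against the mean of log2 marker levels they were 1.71, 1.72, 1.84 and 1.49, with exact permutation p of 0.1, 0.1, 0.1 and 0.3, and without Ptpn6 in the sum they were 2.13, 2.14, 2.25 and 1.90. The near-0 values therefore hold for the full sum only. Ltc4s stood higher relative to the markers in knockouts by 2.48, or 4.52 without Ptpn6, and Ptges by 1.74, or 3.78 without it, with exact permutation p of 0.1 for the full sum of both. The prior count narrows differences between low counts, and Ptgs2, Ptges, Alox5 and Pla2g4c had 10 counts or fewer in every knockout.

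Markers of other cells known to make eicosanoids were also counted. Of 9 mast cell markers 3 passed the filter, and these fell, where 18.3% of all tested genes fell. They were Mcpt1, Mcpt2 and Kit (edgeR log2 fold changes -5.71, -3.44 and -2.17), named after their values were seen, and the direction of Mcpt1 and Mcpt2 was largely set because they passed the filter through the controls only. Without knockout 423 Mcpt1 was at -7.81, without knockout 476 at -5.04, and Mcpt2 without knockout 477 at -4.12. Cpa3, Fcer1a and Ms4a2 had no count in any knockout and 25, 28 and 12 counts over the controls. The other 3, also named after their values were seen, were Tpsb2 (6 counts in knockouts, 26 in controls), Cma1 (4 in knockouts, 0 in controls) and Hdc (19 in knockouts, 33 in controls). The summed mast cell markers ran from 1.86 to 2.35 CPM in knockouts and from 10.8 to 23.7 CPM in controls. Kit made up most of the knockout sums. Without it they were 0.905, 0.399 and 0.805 CPM in knockouts 423, 476 and 477, against 13.0, 6.59 and 7.03 CPM in controls 482, 483 and 486. Of 10 macrophage and monocyte markers 2 rose (Csf1r and Cd14, also named after their values were seen) and none fell, where 17.3% of all tested genes rose. Neither Csf1r nor Cd14 passed with library size alone or without control 483. Only 1 marker of this list rose without control 482, knockout 476 or knockout 477. The 10 markers summed to 31.0 to 37.5 CPM in knockouts and 22.7 to 60.5 CPM in controls.

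Of 7 granulocyte markers only Siglecf was tested, and it fell by 5.30 on the log2 scale. Mouse tuft cells are known to express it as well. Siglecf reached the filter level in all 3 libraries of the control group only, so its direction was largely set by the filter. It stood at 1.19, 0.0332 and 0.173 CPM in knockouts 423, 476 and 477, against 28.1, 12.4 and 16.97 CPM in controls 482, 483 and 486, and so made up nearly all of the control sums of the list (0.266 to 1.81 CPM in knockouts, 12.6 to 28.3 CPM in controls). The other 6 had few counts, among them S100a8 (11 in knockouts, 0 in controls), S100a9 (10 in knockouts, 1 in controls) and Csf3r (10 in knockouts, 11 in controls), named after their values were seen. The general leukocyte marker Ptprc fell by 1.78 on the log2 scale (edgeR adjusted p = 0.0024). It was the 1 call among 8 tested T cell and leukocyte markers, where 18.3% of all tested genes fell. None of 3 tested B and plasma cell markers and none of 8 tested stromal markers passed in the main edgeR fit. With library size alone 3 stromal markers fell. Without the 20 most abundant genes, control 486 or knockout 423, 1 stromal marker fell in edgeR, and 1 with each of DESeq2, limma-voom and limma-trend. In the edgeR fit with no filter, 5 of 6 B and plasma cell markers fell, and 1 stromal marker rose and 1 fell. The part of these cells in the eicosanoid changes was not tested.

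For 3 of the genes, profiles over the 6 libraries were compared with those of 9926 tested genes whose mean was 2 CPM or more. Unnamed and predicted genes were passed over. The nearest genes were those with the smallest root mean square difference of log2 CPM after each gene was centred on its mean. For Alox5 they were Strip2 (0.21), the tuft marker Avil (0.36) and Ffar3 (0.43), a receptor for short-chain fatty acids. For Ptgs1 they were Slco2b1 (0.47), Abat (0.48) and Pros1 (0.49). For Pla2g4c the nearest were the gasdermin C genes Gsdmc3, Gsdmc2 and Gsdmc4, at larger distances of 1.19, 1.20 and 1.62. All 3 shared its pattern of high values in controls 482 and 486 and a low value in control 483, a likeness that follows from how they were chosen. Gsdmc2, for example, stood at 0.362, 0.0665 and 0 CPM in knockouts 423, 476 and 477, against 250, 9.49 and 115 CPM in controls 482, 483 and 486. These 3 gasdermin genes have near-identical sequences, and how reads were divided among them is uncertain.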

How the data were processed

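The data were polyA RNA-seq libraries, 3 knockout and 3 control, 1 mouse each, grouped by sample title. The count table that the authors deposited gives raw counts for each gene as whole numbers. Per the submitters' processing notes, the genome build was mm10 and the tools named were STAR 2.7.9a, Subread 1.6.2 with featureCounts, fastp 0.21.0, bcl2fastq, FastQC 0.11.7 and DESeq2 1.23.10. Annotation and strand setting: not given in the sources used here. The authors also deposited variance-stabilised log2 values, used for 1 alternative only.

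Counts were analysed with edgeR 4.0.16 in R 4.3.3: filterByExpr defaults (15028 genes kept), TMM scaling, the robust quasi-likelihood test over all genes, and calls at a Benjamini-Hochberg adjusted p under 0.05. The script was tested on simulated data. An SE was taken as the absolute log2 fold change divided by the square root of the F statistic. TMM factors were 0.741 to 0.975 in knockouts and 1.09 to 1.28 in controls, while 22.3% to 29.1% of knockout counts and 12.8% to 15.9% of control counts fell in each library's 20 most abundant genes. Replicates are separate mice, but the p-values measure only the spread between these libraries. Symbols matched 55104 of 55450 IDs. Exon lengths and gene coordinates came from GENCODE M21 on mm10.

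Intervals and the floor of 3 counts cover counting error only. Single values per library were compared with exact two-sided permutation tests. The genes and lists were chosen with earlier results of these data known. Named from each pathway list were up to 6 called genes by smallest p plus Lta4h, Ptges2, Ptges3, Ptger4 and Pla2g6, and Mgst3 was named after its values were seen. Of the tuft list, the 4 called genes of smallest p were named. One of the targeted genes is not reported here. Alternatives were other scalings, filters, DESeq2 1.42.0, limma-voom and limma-trend (limma 3.58.1), removal of length and GC trends (mgcv 1.9.3), and each library left out in turn.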

Additional observations from a re-analysis of the deposited data

How the results depend on the processing

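No paired analysis was possible because no animal number occurs in both groups. The number of genes that passed was 5348, and 3299 to 5940 when each library was left out in turn (lowest without control 482). Of the 10 eicosanoid genes, 6 to 8 passed over 15 alternatives, while 35.6% of all tested genes passed in the main fit. Pla2g4a, Alox5, Alox5ap, Ptgs1, Hpgds and Hpgd passed and kept their direction in all 15, and Pla2g4c passed in 13. As Pla2g4a, Pla2g4c, Alox5, Alox5ap and Ptgs1 reached the filter level in all libraries of the controls only, no support is drawn from these counts. Ptgs2 passed in the 6 alternatives that tested it and Ptges in none of 6. In the main fit, Ptgs2 reached the filter level in 0 knockout and 2 control libraries. Where the filter applied, Ptgs2 could therefore enter only by being higher in controls, and no support is drawn from those passes. The log2 fold change of Ltc4s ran from -0.28 to 0.21 when each library was left out, and was -0.53 with library size alone. With library size alone Ptges2 was at -0.10. Cdh1 was at 0.060 after removal of length and GC trends and between -0.168 and 0.0081 when each library was left out. Relative to the tuft markers, Pla2g4a was at -0.028 with a prior count of 0.5 and between -0.34 and 0.40 when each library was left out, Hpgds between -0.10 and 0.24, Hpgd between -0.30 and 0.56, and Ptgs2 between -0.58 and 0.43. With the mean of log2 markers in place of the sum, Ptgs1 was at 0.45, Ptgs2 at 1.49, Pla2g4a at 1.71, Hpgds at 1.72 and Hpgd at 1.84. With Ptpn6 left out of the sum, an alternative chosen after seeing the data, Alox5ap was at 0.23, Ptgs1 at 0.86 and Ptgs2 at 1.90. The cause was not tested. Depth limits Ptgs2, Ptges, Alox5 and Pla2g4c, which had 10 counts or fewer in each knockout library.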
